A study of Mus musculus with 5 samples.

Results

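The prostacyclin pathway and the breakdown of cAMP were described through 9 genes in mouse lung endothelial cell isolates. They were Ptgs1, Ptgs2, Ptgis, Ptgir, Ptger4, Pde3a, Pde3b, Pde4b and Pde4d, found by symbol as 9 of the 49315 genes of the count table. They were chosen by name for their roles, with the levels, fold changes and p-values of the comparison below already known, so those values are a description and support nothing further. RNA was measured by poly(A) RNA-seq in 3 wild-type (WT) libraries and in 2 libraries from mice with a knockout of TET2 in endothelial cells (TET2KO). TET2 oxidises methylated cytosine in DNA. All mice, WT and TET2KO alike, had been infused with angiotensin II, a peptide hormone that constricts vessels, for 28 days, and there was no group without the hormone. Which promoter drove the deletion, the age of the mice, how the cells were isolated and whether each library came from 1 animal are not given in the sources used here. The p-values therefore measure only how these libraries spread, and some of that spread may be technical.

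Prostacyclin is a lipid mediator that endothelial cells make from arachidonic acid. Cyclooxygenases, encoded by Ptgs1 (the constitutive form) and Ptgs2 (the inducible form), make the endoperoxide precursor, and the synthase encoded by Ptgis turns it into prostacyclin. The receptor encoded by Ptgir couples to adenylyl cyclase and raises cAMP, as does the prostaglandin E receptor encoded by Ptger4. In vessels cAMP relaxes smooth muscle, holds platelets back and tightens the endothelial barrier. Phosphodiesterases end the signal by hydrolysing cAMP. Those encoded by Pde3a and Pde3b are inhibited by cGMP, which ties them to nitric oxide signalling, and those encoded by Pde4b and Pde4d are specific for cAMP.

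Pde3a and Pde3b are paralogs whose values differed in opposite directions between the groups, so the most alike coding stretch of the pair is shown to let their separation in the counts be judged. The longest run of identical bases shared by their longest coding transcripts was 14 bases, against reads of 150 bases. The stretches below are the 60 coding bases with the fewest differences, 9, from GENCODE M21 transcripts (GRCm38). They span coding bases 2476 to 2535 of Pde3a and 2359 to 2418 of Pde3b. Capitals mark bases that differ between the paralogs.
Pde3a: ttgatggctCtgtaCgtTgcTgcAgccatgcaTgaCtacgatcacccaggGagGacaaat
Pde3b: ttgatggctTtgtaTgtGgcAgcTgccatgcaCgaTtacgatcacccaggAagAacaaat
The corresponding longest identical run was 14 bases for Ptgs1 against Ptgs2 and 32 bases for Pde4b against Pde4d.

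TET2 acts on cytosines that precede guanine (CpG), and the 2 cyclooxygenase genes differ in how many their promoters hold. No methylation was measured here, so the sequences are shown as context for the RNA values only. Each is the 250 bases before the RefSeq start (GRCm38.p6), on the plus strand, at chr2:36230176-36230425 for Ptgs1 and chr1:150099781-150100030 for Ptgs2, with CpG in capitals.
Ptgs1: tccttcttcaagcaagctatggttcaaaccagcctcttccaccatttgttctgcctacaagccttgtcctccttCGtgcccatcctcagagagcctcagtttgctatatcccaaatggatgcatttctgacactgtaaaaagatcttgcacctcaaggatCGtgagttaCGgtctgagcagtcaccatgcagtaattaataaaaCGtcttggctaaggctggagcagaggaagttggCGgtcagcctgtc
Ptgs2: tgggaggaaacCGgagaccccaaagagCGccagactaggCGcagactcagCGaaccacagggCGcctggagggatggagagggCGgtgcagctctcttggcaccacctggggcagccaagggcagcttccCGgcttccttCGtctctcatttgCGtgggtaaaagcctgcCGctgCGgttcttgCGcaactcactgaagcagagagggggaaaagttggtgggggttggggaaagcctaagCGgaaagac
The Ptgs1 window held 5 CpG and the Ptgs2 window 13, where the median of 32851 RefSeq windows of that length was 6. Of the 9 genes, 6 had such a window. Ptgis, Pde3a and Pde3b had none, and all of these are genes whose WT and TET2KO values did not overlap. The window of Ptger4 held 19 CpG and that of Ptgir 5, while the 4 windows of Pde4b held 5, 1, 0 and 3 and that of Pde4d held 1. The palindromic cAMP response element TGACGTCA was in none of these 9 windows and in 1.55% of all windows (both strands searched). Its core TGACG was in 1 of the 9, at Pde4b, and in 17.8% of all windows, full elements included. Only these 250 bases were searched, so an element after the RefSeq start or further upstream would not be seen.

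The libraries held between 27346804 and 35440257 counts. Reads of Tet2 did not separate the groups: counts over the whole gene were 4018, 5142 and 4130 in WT and 4608 and 5188 in TET2KO, and the deleted exons are not named in the sources used here. These counts therefore check no label. The endothelial identity list had its 20 markers counted in every library, none at 0, and made up 0.490%, 0.326% and 0.649% of the WT libraries (replicates 1, 2 and 3) against 0.882% and 0.907% of the TET2KO libraries. All 20 were higher in both TET2KO libraries than in any WT library. Leukocyte transcripts were abundant in every library. Ptprc, the pan-leukocyte antigen, was at 1513, 1206 and 1398 CPM (counts scaled to library size, with TMM factors) in WT and 1205 and 1163 CPM in TET2KO. The list of macrophages and monocytes took 3.16% of counts in WT replicate 2 and 0.348% to 1.02% in the other 4 libraries, and the myeloid lysozyme gene Lyz2 reached 18223 CPM there against 1762 to 5259 CPM elsewhere. That list did not act as one: of its 15 genes 9 were highest in WT replicate 2, while 6 (C1qa, C1qb, C1qc, Ccr2, Cx3cr1 and Ly6c2) were at their lowest there. Chil3 and Lyz2 held 89.3% of its counts in that library and 78.6% to 85.5% in the other 4 libraries. The B cell list took 0.543%, 0.150% and 0.667% of counts in WT and 0.470% and 0.300% in TET2KO. In WT replicate 2, 9 of 10 B cell genes and 11 of 12 T and NK cell genes were at their lowest. In bulk RNA, fewer cells of a type and less RNA per cell cannot be told apart.

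The fold changes in the authors' deposited table did not follow the labelled groups. For 100% of 16046 genes with at least 10 normalized counts in each library, the log2 fold change in the authors' deposited table lay within 0.05 of the ratio of WT replicate 3 and both TET2KO libraries to WT replicates 1 and 2. The authors' deposited table gave Pde3a 1.37 (adjusted p = 2.48e-05) and Ptgir -3.34 (adjusted p = 0.0133), the 2 of these 9 genes in their shorter table of 217 genes. Their full comparison held 18019 genes, and 299 of the 13826 with an adjusted p were under 0.05. On the same normalized counts the labelled groups gave ratios of 0.99 for Pde3a and -2.55 for Ptgir on the log2 scale. Below, values per library are listed in the order of the replicate numbers. All use the groups of the labels. Whether the labels or the authors' grouping of WT replicate 3 is in error cannot be told from the files, so every TET2KO to WT value holds for the labelled groups only. Fold changes of the 9 genes that a single library moved most are given with and without it.

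Levels between genes were compared in TPM, which divide counts by gene length and by library size. Pde4b had the highest level, with a mean of 138 ± 18.4 TPM (SD over the 5 libraries), and stood above the other 8 genes in each library. The ranges of all later neighbours in the order overlapped. Pde3b followed at 58.8 ± 14.8 TPM and Ptgs2 at 54.7 ± 23.9 TPM, with Pde3b above Ptgs2 in 3 of 5 libraries. Ptgs1 was at 33.0 ± 12.7 TPM and Pde3a at 31.95 ± 16.8 TPM. The 4 lowest means were 24.8 ± 39.7 TPM for Ptgir, 17.9 ± 3.61 TPM for Pde4d, 17.4 ± 1.63 TPM for Ptger4 and 11.6 ± 5.68 TPM for Ptgis. The mean of Ptgir rested on WT replicate 2, at 95.6 TPM, with 3.95 to 8.81 TPM in the other 4 libraries.

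**Figure D1:**
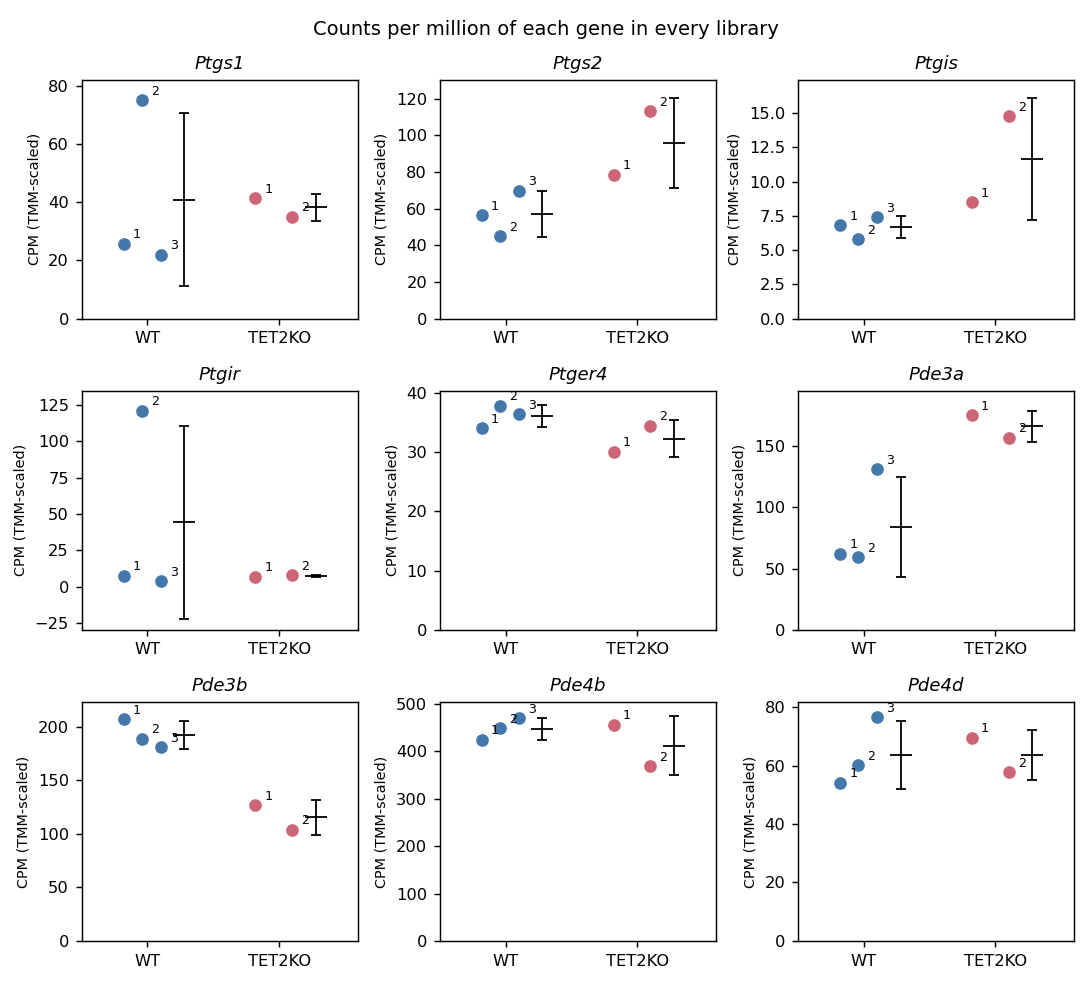
Level of each gene in every library, in CPM scaled by TMM, with the replicate number beside each point and the group mean ± SD at its right (n = 3 WT and 2 TET2KO). Ptgs2, Ptgis and Pde3a lay higher, and Pde3b lower, in both TET2KO libraries than in any WT library, and Ptgir stood out in WT replicate 2 at 121 CPM.

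Among the synthesis genes, Ptgs2 and Ptgis were higher in TET2KO and Ptgs1 was not. Ptgs2 (chromosome 1, 150100031 to 150108227, plus strand) was at 56.6, 45.0 and 69.7 CPM across the WT libraries against 78.4 and 113 CPM in the TET2KO libraries. Both TET2KO libraries lay above the WT libraries, the lower by a small margin over WT replicate 3. The log2 fold change of Ptgs2 was 0.75 (SE 0.26), and 0.46 without TET2KO replicate 2. Ptgis (chromosome 2, 167191805 to 167240604, minus strand) was at 6.83, 5.81 and 7.40 CPM across the WT libraries against 8.49 and 14.8 CPM in the TET2KO libraries. The groups did not overlap, but TET2KO replicate 2 was 1.74 times the next highest library. The log2 fold change of Ptgis was 0.80 (SE 0.30), and 0.34 without TET2KO replicate 2. Ptgis rests on few reads, 172 to 233 counts in WT and 281 and 472 in TET2KO, and 156 of its 2567 exonic bases overlap 1110018N20Rik on the opposite strand, which had 11 to 21 counts.

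Ptgs1 (chromosome 2, 36230426 to 36252272, plus strand) was at 25.8, 75.0 and 21.99 CPM across the WT libraries against 41.5 and 35.05 CPM in the TET2KO libraries. WT replicate 2 was the highest library and WT replicates 1 and 3 the lowest, so the groups overlapped. Its log2 fold change was -0.10 (SE 0.57) with all libraries and 0.71 (SE 0.15) without WT replicate 2, where the edgeR adjusted p was 0.399. The list of macrophages and monocytes averaged 0.71 in WT replicate 2 on the log2 scale against the mean of the 5 libraries, from 9 genes at their highest and 6 at their lowest there, while platelet genes, from another cell that carries Ptgs1, were lowest there at -1.09. The part of those cells in the Ptgs1 value was not tested. The inducible form took 65.1%, 33.7% and 72.9% of summed Ptgs1 and Ptgs2 TPM across the WT libraries against 61.6% and 73.2% in the TET2KO libraries. These shares overlapped between the groups, although the summed TPM was 66.4, 76.8 and 70.98 in WT and 102 and 123 in TET2KO. The total separated the groups on the TPM scale but not in CPM. Scaled as CPM, WT replicate 2 had Ptgs1 at 75.0 and Ptgs2 at 45.0, while TET2KO replicate 1 had Ptgs1 at 41.5 and Ptgs2 at 78.4.

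The receptors gave no common direction. Ptgir (chromosome 7, 16906490 to 16910905, plus strand) had 218, 3582 and 122 reads in the WT libraries against 227 and 257 reads in the TET2KO libraries. In CPM these were 7.64, 121 and 3.88 in WT and 6.86 and 8.05 in TET2KO. WT replicate 2 alone was high, at 15.0 times the next library, while WT replicate 1 lay between the TET2KO values and WT replicate 3 below them. The log2 fold change of Ptgir was -2.57 (SE 1.57) with all libraries and 0.41 (SE 0.35) without WT replicate 2. Ptgir is annotated with no gene overlapping it on either strand. In that library Chil3 and Lyz2 were high and C1qa, C1qb, C1qc, Ccr2, Cx3cr1 and Ly6c2 low among the macrophage and monocyte genes, and the part of such cells in the Ptgir value was not tested.

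Ptger4 (chromosome 15, 5206661 to 5244187, minus strand) varied least of the 9 genes. It was at 34.0, 37.8 and 36.4 CPM across the WT libraries against 30.1 and 34.4 CPM in the TET2KO libraries, and the highest library was 1.26 times the lowest. The groups overlapped through TET2KO replicate 2 and WT replicate 1. The log2 fold change of Ptger4 was -0.16 (SE 0.16). Of its 6648 exonic bases, 1097 are overlapped on the opposite strand, by Ttc33 and a pseudogene.

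Of the cGMP-inhibited phosphodiesterases, Pde3a was higher and Pde3b lower in TET2KO. Pde3a (chromosome 6, 141249269 to 141507448, plus strand) was at 62.1, 59.5 and 131 CPM across the WT libraries against 175 and 157 CPM in the TET2KO libraries. Both TET2KO libraries were above the WT libraries, and WT replicate 3 lay between the 2 other WT libraries and TET2KO. The log2 fold change of Pde3a was 0.98 (SE 0.38), and 1.48 without WT replicate 3. An antisense transcript, Gm28523, overlaps 741 of the 12737 exonic bases of Pde3a and had 10 to 22 counts, against 1761 to 5808 for Pde3a.

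Pde3b (chromosome 7, 114415281 to 114539251, plus strand) was at 207, 189 and 181 CPM across the WT libraries against 127 and 104 CPM in the TET2KO libraries. Both TET2KO libraries were below all WT libraries, and the WT values lay close together. Its log2 fold change was -0.74 (SE 0.18) and ranged from -0.89 to -0.60 with 1 library left out, the narrowest such range among the 4 genes whose groups did not overlap. By edgeR's quasi-likelihood test Pde3b ranked 153 of 18727 genes, ahead of the others of the list, with an adjusted p of 0.778. Pde3a took 17.6%, 18.4% and 34.2% of the TPM of the pair in WT and 49.7% and 51.95% in TET2KO. The summed TPM of the pair was 96.6, 66.9 and 103 in WT and 101.2 and 86.7 in TET2KO, so the total overlapped between the groups while the make-up did not.

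Pde4b and Pde4d, of the cAMP-specific family, did not separate the groups in CPM. Pde4b (chromosome 4, 102087543 to 102607259, plus strand) was at 424, 449 and 470 CPM across the WT libraries against 456 and 369 CPM in the TET2KO libraries. TET2KO replicate 2 was lowest and TET2KO replicate 1 lay inside the WT range. The log2 fold change of Pde4b was -0.12 (SE 0.19). Pde4d (chromosome 13, 108449948 to 109953461, plus strand) was at 54.1, 60.1 and 76.6 CPM across the WT libraries against 69.6 and 57.7 CPM in the TET2KO libraries, both within the WT range. Its log2 fold change was 0.00 (SE 0.21).

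Within the family Pde4b took 81.9% to 84.9% of the summed TPM of Pde4a, Pde4b, Pde4c and Pde4d in the 5 libraries, and Pde4d took 9.53% to 12.05%. Over 16 genes of the families that hydrolyse cAMP, the summed TPM was 441, 334 and 453 in WT and 461 and 401 in TET2KO. Pde4b made up 31.8% to 34.2% of that sum in the 5 libraries. Pde3a made up 3.86%, 3.69% and 7.75% in WT and 10.9% and 11.2% in TET2KO, and Pde3b 18.03%, 16.4% and 14.9% in WT and 11.04% and 10.4% in TET2KO. The 4 phosphodiesterases of the list together held 57.3% to 60.8% in every library, with no separation of the groups. Outside the list, Pde4c, Pde7b, Pde8b and Pde10a also had higher shares in both TET2KO libraries than in any WT library. None there had a lower share in both. The largest of these shares, that of Pde8b, was 1.40% to 2.40% in WT and 2.57% and 3.18% in TET2KO.

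**Figure D2:**
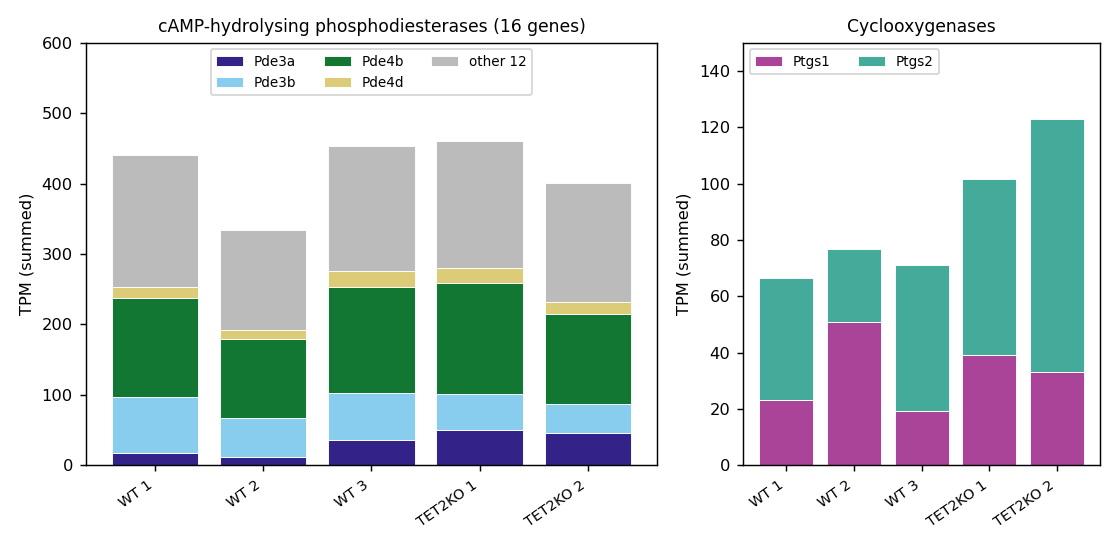
Summed TPM in each library of 16 phosphodiesterase genes that hydrolyse cAMP (left; the 12 outside the list are shown as 1 segment) and of the 2 cyclooxygenases (right). Pde3a took 49.7% and 51.95% of the pair with Pde3b in TET2KO against 17.6% to 34.2% in WT, while the Pde4b segment had a share of 31.8% to 34.2%.

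No gene of the list passed the threshold, a Benjamini-Hochberg adjusted p under 0.05 over 18727 genes in the quasi-likelihood test of edgeR. The test called 0% of all genes, and adjusted p values of the 9 genes ran from 0.778 to 0.999. On simulated counts edgeR called 1.02% of 2-fold changes, so a lack of calls does not show a lack of change. At an unadjusted p under 0.05 edgeR counted 4 of the 9 (Ptgs2, Ptgis, Pde3a and Pde3b) against 5.69% of all genes, 1065 in number. That count dropped to 0 when TET2KO replicate 2 was left out, to 1 for WT replicate 1 and to 3 for each of the other libraries. DESeq2 called 0 of the 9 against 0.395% of the 15456 genes to which it gave an adjusted p, 61 in number. At an unadjusted p under 0.05 DESeq2 had 5 of the 9, the same 4 and Ptgir, against 6.23% of genes. The negative Ptgir value rested on WT replicate 2, and by edgeR it was 0.41 without that library. Limma on log2(TPM + 1) called 0 and had 3 of the 9 at that level, against 7.12% of genes. The TET2KO pair exceeded every WT library for 3 of the 9 genes, against 12.4% of all genes, and was under every one for 1 of the 9, against 12.4% of all genes. Since the comparison was known when the genes were listed, nothing is read from these counts. The median log2 fold change was -0.10 over the 9 genes and -0.08 over all genes tested. It turned to 0.41 over the 9 genes without WT replicate 2, with 0.0047 over all genes, and to 0.026 without TET2KO replicate 2, with -0.06 over all genes.

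The higher values in TET2KO ran beside those of markers of several cell types. The median log2 fold change was 0.77 over the endothelial list, 0.78 over alveolar epithelium, 0.89 over mast cells and basophils and 1.71 over mesothelium, where 9 of 10 genes had both TET2KO libraries above all WT libraries. Other lists did not rise: the median was -0.35 over B cells, with 0 of 10 genes above 0, -0.02 over T and NK cells and -0.51 over macrophages and monocytes. The remaining lists had medians from 0.22 to 0.45. When libraries were scaled on the 20 endothelial markers in place of TMM, the median of all genes moved from -0.08 to -0.89. On that scale the log2 fold change was -0.05 (SE 0.28) for Ptgs2, -0.02 (SE 0.35) for Ptgis and 0.25 for Pde3a, so 3 genes that were higher per total RNA were not higher per endothelial transcript, or by less. For Pde3b it was -1.57. Relative to the median of all genes, Ptgs2 stood at 0.85, Ptgis at 0.88, Pde3a at 1.14 and Pde3b at -0.68 on that scale, near the 0.82, 0.87, 1.054 and -0.66 under TMM. A change of scaling moves all genes by about the same amount, so this closeness follows from the method and nothing is read from it. The part of endothelial or other cell content in these differences was not tested.

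**Figure D3:**
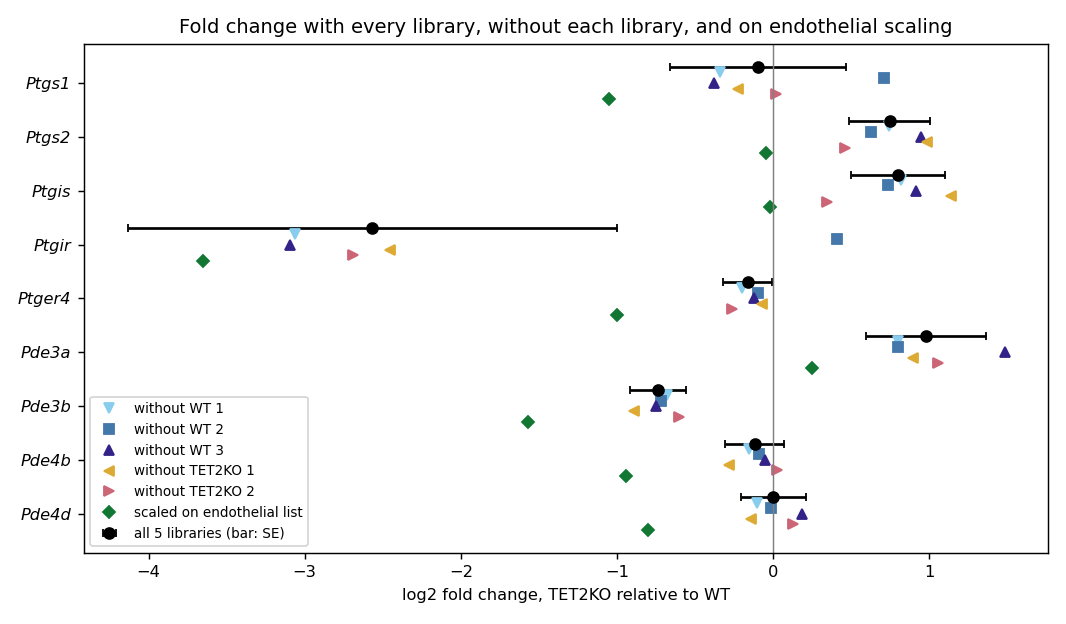
Log2 fold change of each gene, TET2KO relative to WT: edgeR with all 5 libraries (black, bar ± SE), without each library in turn, and with libraries scaled on the endothelial list (green). Ptgir and Ptgs1 passed to the other side of 0 without WT replicate 2, at 0.41 and 0.71, while Pde3b stayed between -0.89 and -0.60 without any 1 library.

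The profile of each gene over the 5 libraries was set beside those of the cell type lists, as log2 CPM centred on the mean of the libraries. Likeness was the root mean square difference between 2 profiles, a description over 5 libraries, in which a library's own make-up enters both profiles. Of 11 lists, endothelial identity was nearest to Ptgs2 (0.15), Ptgis (0.25) and Pde3a (0.27), and alveolar epithelium came next for Ptgis (0.31). Macrophages and monocytes were nearest to Ptgs1 (0.43) and Ptgir (1.35), the last a poor match. Pde3b had no list nearer than 0.50 and lay 0.81 from endothelial identity. Among 10151 genes at or above a mean log2 CPM of 3, those nearest to Ptgs2 were Ryk and Myct1 (0.06 each), and the nearest to Ptgis were Bgn (0.07), the matrix proteoglycan biglycan, and Fbln2 (0.07), the matrix protein fibulin. Nearest to Ptgir were Stra6l and Rnf128 (0.14 each). Stra6l was at 8.97, 121 and 3.84 CPM across the WT libraries against 6.07 and 7.39 CPM in the TET2KO libraries, so the single high library was shared. Nearest to Pde3a were Glb1l2 (0.10) and Tgfb1i1 (0.11), to Pde3b Susd1 (0.11) and Asnsd1 (0.12), and to Ptgs1 Cdc42bpb and Tbc1d24 (0.14 each). For Ptger4 they were Mad1l1 and Fam104a (0.02 each), for Pde4b Ddx56 and Arfrp1 (0.02 each), and for Pde4d Atxn1l (0.03) and Zfp341 (0.04), all profiles with little change.

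**Figure D4:**
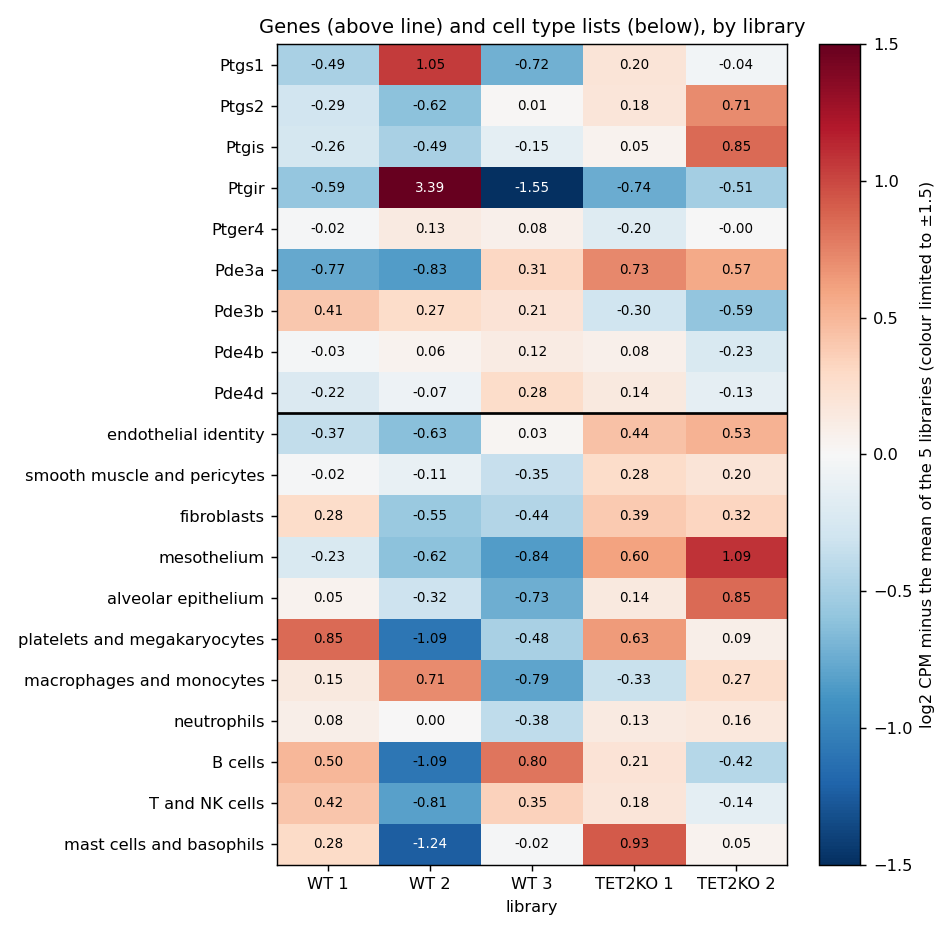
Log2 CPM in each library minus the mean of the 5 libraries, for the 9 genes (above the line) and as the mean of each cell type list (below). Ptgs2, Ptgis, Pde3a and the endothelial list were above 0 in both TET2KO libraries. So were the lists of smooth muscle and pericytes, fibroblasts, mesothelium, alveolar epithelium, platelets, neutrophils, and mast cells and basophils. Ptgir (3.39) and Ptgs1 (1.052) peaked in WT replicate 2, where the macrophage list, of which 9 genes peaked and 6 were lowest there, averaged 0.71.

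Other genes of the pathway gave 0 calls by edgeR in 5 lists, where edgeR called 0% of all genes and DESeq2 called 1, Pde9a. For synthesis, transport and breakdown of prostanoids and leukotrienes, 21 of 24 genes were tested, 5 were above 0 and the median log2 fold change was -0.33. Hpgd, which inactivates prostaglandins, averaged 178 ± 31.9 CPM over the 3 WT and 305 ± 64.0 CPM over the 2 TET2KO libraries (SD). Its log2 fold change was 0.78 (SE 0.23, edgeR adjusted p = 0.778), and -0.030 with the endothelial scaling. Slco2a1, the prostaglandin transporter, chosen after its values were seen, was at 358 ± 88.5 and 651 ± 16.8 CPM. Tbxas1, the thromboxane synthase, was at 61.2, 213 and 24.4 CPM across the WT libraries against 35.1 and 46.8 CPM in the TET2KO libraries, highest in WT replicate 2. The leukotriene genes Alox5ap (387 CPM) and Ltc4s (95.6 CPM) and the prostaglandin E synthase Ptges (10.2 CPM) were also highest there, and so was Ptges3, a co-chaperone with synthase activity, at 131 CPM.

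Of 8 other receptor genes, 7 were tested, 4 were above 0 and the median was 0.05. Ptgdr, a prostaglandin D receptor, had 0 counts in all 5 libraries. Ptger2, another prostaglandin E receptor that raises cAMP, was at 11.5, 39.99 and 4.54 CPM across the WT libraries against 5.53 and 9.77 CPM in the TET2KO libraries. Its high library was WT replicate 2, as for Ptgir. Tbxa2r, the thromboxane receptor, was at 8.99 ± 3.66 and 10.7 ± 1.51 CPM, Ptger1 at 30.5 ± 6.33 and 29.6 ± 4.57 CPM, and the nuclear receptor gene Ppard at 44.4 ± 10.6 and 37.5 ± 2.65 CPM. Ptger3, which lowers cAMP, was at 0.594 ± 0.167 and 0.666 ± 0.387 CPM.

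Of 20 other phosphodiesterase genes, 16 were tested, 10 were above 0 and the median was 0.36. Pde9a, which hydrolyses cGMP, was at 29.6, 22.7 and 30.9 CPM across the WT libraries against 65.6 and 58.9 CPM in the TET2KO libraries, with no overlap. Its log2 fold change was 1.17 (SE 0.19), and the adjusted p was 0.778 by edgeR and 0.00698 by DESeq2. With the endothelial scaling it was 0.37 (SE 0.28). DESeq2 made 75 false calls on simulated counts and called 61 genes here. Pde1b, which is activated by calmodulin, was at 51.4 ± 9.02 and 42.7 ± 1.95 CPM. Pde7a was at 122 ± 50.5 and 112 ± 11.6 CPM, and Pde8a at 52.1 ± 21.5 and 42.7 ± 1.47 CPM. Pde2a, which cGMP stimulates, was at 10.3 ± 5.03 and 9.24 ± 1.37 CPM. The remaining members of the cAMP-specific family, Pde4a and Pde4c, were at 16.2 ± 4.59 and 2.89 ± 0.744 CPM across the WT libraries against 13.7 ± 1.46 and 4.67 ± 1.01 CPM in the TET2KO libraries.

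Of 37 genes for G proteins, adenylyl cyclases, protein kinase A and its anchors, Epac and Rap1, 33 were tested, 16 were above 0 and the median was -0.02. Adcy4, an adenylyl cyclase of endothelium, was at 117, 107 and 188 CPM across the WT libraries against 259 and 224 CPM in the TET2KO libraries, without overlap, and its log2 fold change was 0.82 (SE 0.29, edgeR adjusted p = 0.829). Without WT replicate 3 it was 1.14, and with the endothelial scaling 0.052. Rapgef3, the cAMP sensor Epac, was at 57.4 ± 25.9 and 104 ± 46.8 CPM, with overlap. The 4 genes of the list with the highest mean TPM, Rap1b (487 ± 33.5 and 467 ± 24.7 CPM), Gnai2 (757 ± 98.5 and 679 ± 28.3 CPM), Prkar1a (377 ± 33.6 and 354 ± 30.6 CPM) and Akap8 (253 ± 49.8 and 245 ± 21.6 CPM), overlapped between the groups. Akap13, an anchor of protein kinase A with the highest CPM of the list, named after its values were seen, was lower in both TET2KO libraries (948 and 860 CPM) than in any WT library (1118, 1008 and 1124 CPM).

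Of 22 genes for the CREB family, its coactivators and genes that cAMP induces, 21 were tested, 6 were above 0 and the median was -0.10, where 41.6% of all genes were above 0. The immediate early genes Fos, Junb and Fosb were at 2423 ± 544, 2343 ± 301 and 4264 ± 1510 CPM across the WT libraries against 2668 ± 247, 2106 ± 301 and 5153 ± 315 CPM in the TET2KO libraries. Nr4a1, a nuclear receptor gene induced by cAMP and by many other signals, was at 1243 ± 133 and 1243 ± 84.95 CPM. The groups overlapped for all 4.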

How the data were processed

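Read counts per gene, as whole numbers, and TPM values were deposited by the authors. A further table that the authors deposited holds log2 fold changes, p-values and size-factor normalized counts (a normalized signal), per the file headers. Per the submitters' processing notes, the tools were featureCounts of Subread 1.5.2, STAR 2.5.2b, Trimmomatic 0.36 and DESeq2, with GRCm38. No source used here gives the strand setting of the counting, so opposite-strand overlaps were not resolved.

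Counts of all 5 libraries were tested with edgeR 4.0.16 in R 4.3.3: quasi-likelihood F test, TMM factors, filterByExpr and a model of genotype alone. Benjamini-Hochberg adjustment ran over the 18727 genes tested, with a threshold of 0.05. The SE was obtained as the fitted log2 change over the root of F. Log2 CPM used a prior count of 2, and sums and shares used TPM. DESeq2 1.42.0 and limma 3.58.1 gave alternatives. The edgeR, DESeq2 and limma fits were each tested on simulated counts with known changes. There edgeR called 1.02% of 2-fold and 34.0% of 4-fold changes, with 5 false calls. DESeq2 called 15.3% and 77.3%, with 75 false calls, and limma 1% and 31%, with 5 false calls.

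The 9 genes and the lists were chosen with earlier results of these data known. The named genes were the 9, the 4 of highest mean TPM in each pathway list, 11 chosen by name, any list gene called by edgeR, and the 2 nearest profiles of each of the 9.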

Additional observations from a re-analysis of the deposited data

How the results depend on the processing

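Each of the 9 fold changes was recomputed under 12 alternatives. None of the 9 genes passed an adjusted p of 0.05 in any of them, with a lowest adjusted p of 0.118. DESeq2 called 61 genes over all genes, all higher in TET2KO, where edgeR called 0; with each library left out in turn edgeR called 0 genes (265 to 1864 at an unadjusted p under 0.05). Pde3a (0.25 to 1.48) and Pde3b (-1.57 to -0.52) kept their sign in all 12. Without WT replicate 2, Ptgs1 was at 0.71, Ptgir at 0.41 and Pde4d at -0.015. Without TET2KO replicate 2, Ptgs1 was at 0.019 and Pde4b at 0.026. With 1 library left out in turn, Ptgs1 ran from -0.38 to 0.71, Ptgir from -3.09 to 0.41, Pde4b from -0.28 to 0.026 and Pde4d from -0.14 to 0.19. Where 1 TET2KO library remained, it was assumed to vary like the WT libraries. Pde4d was at -0.10 without WT replicate 1 and -0.14 without TET2KO replicate 1. On the endothelial scale Ptgs2 was at -0.047, Ptgis at -0.018 and Pde4d at -0.80. On log2(TPM + 1) and log2(TPM + 0.1), where the median of all genes was 0.13 and 0.17, Ptgs1 was at 0.33 and 0.34, Ptger4 at 0.046 and 0.048, and Pde4b at 0.086 and 0.087. On log2(TPM + 1) Ptgir was at -0.83. The cause of these changes was not tested.

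The replicate block, with the replicate number beside genotype, called 0 of 18727 genes and 0 of the 9, with Pde3a at 1.45 and Pde3b at -0.78. Same-numbered libraries deviated together with correlations of 0.22 and 0.49 over the 2 shared numbers, but nothing in the labels says that a number marks a shared source. Ptgir and Ptgis had the fewest reads of the 9 genes, and their lowest libraries held 122 and 172 counts. Both also moved with 1 library, Ptgir to 0.41 without WT replicate 2 and Ptgis to 0.34 without TET2KO replicate 2. Genes with more reads moved as well. Ptgs1 went from -0.10 to 0.71 without WT replicate 2, and Ptgs2 from 0.75 to 0.46 without TET2KO replicate 2.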
